A study of Mus musculus with 12 samples.

Results

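Usp2, Wee1, Noct, Tsku, Rnf125, Asap2 and Moxd1 were followed as strong time-of-day output genes of mouse liver, 7 of the 48440 genes in the deposited tables. They were chosen by name, as genes whose level differed much between ZT14 and ZT2 in these same libraries, so their time differences describe the choice and were given no test. All 7 passed the filter on low reads, and 15244 genes did. Poly(A) RNA had been sequenced from livers of male C57BL/6 mice that were 8 weeks old, untreated, fed chow at random and kept on a cycle of 12 h light and 12 h dark. The groups, each with 3 libraries, were transgenic mice with liver-specific E4BP4 overexpression (TG) at ZT14, wild-type mice (WT) at ZT14, TG at ZT2 and WT at ZT2. ZT counts hours from lights on, so ZT14 fell early in the dark and ZT2 early in the light. Which promoter drives the transgene is not given in the sources used here. Labels do not state that the 3 libraries of a group are separate animals, and the p-values below therefore reflect the spread between libraries, which may be technical.

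Clock output genes are genes whose transcripts follow the circadian oscillator without being parts of its core loop. In liver, CLOCK and BMAL1 drive transcription through E-boxes, the PER and CRY proteins repress it, and secondary loops act through ROR elements and through D-boxes, which DBP, TEF and HLF activate and E4BP4 represses. Feeding, body temperature and glucocorticoids add daily rhythms of their own. The 7 genes have unrelated products. Usp2 encodes a ubiquitin-specific protease, which removes ubiquitin from proteins, and Rnf125 encodes a RING-type ubiquitin ligase, which attaches it. Wee1 encodes the kinase that holds CDK1 inactive before mitosis. Noct encodes nocturnin, a phosphatase of NADP(H) from the CCR4-like family, in which other members shorten poly(A) tails. Tsku encodes tsukushi, a secreted leucine-rich proteoglycan made by liver. Asap2 encodes a GTPase-activating protein for ARF, a small GTPase of membrane traffic. Moxd1 encodes a relative of dopamine beta-hydroxylase, a copper-dependent monooxygenase.

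RefSeq start sites on GRCm38.p6 were found for 4 of the 7 genes, Usp2, Noct, Tsku and Moxd1, and not for Wee1, Rnf125 and Asap2. The windows of the 3 of these that were higher at ZT14 in both genotypes are shown, since a shared rhythm raises the question of shared clock motifs. Each holds the 250 bases before the start site, 5′ to 3′ on the strand of the gene, with GC boxes (GGGCGG on either strand) in capitals. They are chr9:44084670-44084919 on the plus strand for Usp2, chr3:51224197-51224446 on the plus strand for Noct and chr7:98361329-98361578 on the minus strand for Tsku. The Usp2 window lies inside the deposited gene model, downstream of its first annotated base.
Usp2: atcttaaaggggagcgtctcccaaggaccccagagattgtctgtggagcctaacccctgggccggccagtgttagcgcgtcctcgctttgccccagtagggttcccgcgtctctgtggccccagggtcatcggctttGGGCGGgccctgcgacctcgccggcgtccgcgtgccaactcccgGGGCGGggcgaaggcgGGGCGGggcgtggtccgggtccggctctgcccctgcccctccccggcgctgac
Noct: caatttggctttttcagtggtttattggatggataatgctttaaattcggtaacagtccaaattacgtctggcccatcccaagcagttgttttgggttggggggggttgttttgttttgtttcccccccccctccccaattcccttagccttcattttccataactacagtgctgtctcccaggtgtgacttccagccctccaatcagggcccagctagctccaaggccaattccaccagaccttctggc
Tsku: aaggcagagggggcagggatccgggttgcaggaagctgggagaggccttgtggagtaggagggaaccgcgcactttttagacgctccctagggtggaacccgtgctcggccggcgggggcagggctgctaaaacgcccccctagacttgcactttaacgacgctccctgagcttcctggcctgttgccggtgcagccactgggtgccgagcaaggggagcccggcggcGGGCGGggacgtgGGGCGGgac
Usp2 held 3 GC boxes, Tsku held 2 and Noct held 0, and the Moxd1 window, not shown, held 2. GC boxes were present in 32.7% of the 32851 windows of this length in the table. The letters searched on both strands also included the E-box CACGTG (present in 6.02% of all windows), its variant CACGTT (3.85%), the D-box as TTACGTAA or TTATGTAA (0.931%) and the ROR element TAGGTCA (2.23%). They included GAANNTTC of the heat shock element (6.69%), the cAMP response element TGACGTCA (1.55%) and the TATA box TATAAA (12.4%). None of these was in the windows of the 4 genes, which says only that these letters are absent there.

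Depth was 16035121 to 23981021 total gene reads per library, of which 81.2% to 85.5% mapped uniquely. The 9 hepatocyte markers found in the files were high in every library, with Alb at 42660 to 56620 CPM (reads scaled to library size, after TMM scaling). Nfil3, which encodes E4BP4, had 63.8 to 93.9 CPM in TG at ZT14 against 24.6 to 40.4 CPM in WT at ZT14, and at ZT2 62.6 to 71.1 CPM in TG against 29.4 to 48.8 CPM in WT. A pair of TG libraries, replicate 2 of ZT2 and replicate 3 of ZT14, stood apart with scores of -30.8 and -33.2 on the second principal component, where the other 10 libraries scored 2.0 to 12.1. In these 2 libraries the 11 tested genes of a list of genes higher in female mouse liver lay on average 1.81 and 1.46 above WT on the log2 scale, against -0.14 to 0.83 in the others. Summed, they had 197 and 191.5 CPM there, and 188 CPM in TG at ZT14 replicate 2. Other lists differed there too, with genes higher in male liver at -0.56 and -0.55 and erythroid markers at 0.83 and 0.86. TG at ZT2 replicate 3 lay at -0.46 for the male list, and TG at ZT14 replicate 2 at 0.59 for the erythroid one. For some results, values without these 2 libraries are also given.

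Usp2 (ENSMUSG00000032010, chromosome 9, 44067021 to 44095627, plus strand) was the member with the widest time range by total gene reads in both genotypes, other than Moxd1 in WT. By uniquely mapped reads in TG, the level at ZT14 was 18.35 times that at ZT2 for Usp2 and 19.0 times for Noct. The Usp2 level was 31.35, 35.4 and 27.95 CPM in TG at ZT14 and 40.3, 29.3 and 41.6 CPM in WT at ZT14. It was 1.10, 0.715 and 0.963 CPM in TG at ZT2 and 1.46, 1.71 and 1.03 CPM in WT at ZT2. Every library at ZT14 lay far above every library at ZT2, while TG and WT overlapped at each time. The fitted difference of ZT14 over ZT2 was 5.09 on the log2 scale in TG (SE 0.21) and 4.73 in WT (SE 0.20). In reads, the sums were 2242 in TG at ZT14, 2541 in WT at ZT14 and, at ZT2 50 in TG and 78 in WT, so the level at ZT2 rested on 13 to 31 reads per library.

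Wee1 (ENSMUSG00000031016, chromosome 7, 110122046 to 110143286, plus strand) had 13.4, 10.3 and 6.84 CPM in TG at ZT14 and 15.6, 16.4 and 12.8 CPM in WT at ZT14. At ZT2 it had 1.96, 0.880 and 1.82 CPM in TG and 1.22, 1.33 and 1.24 CPM in WT. The 3 WT libraries at ZT2 lay within 1.09 times of each other, while the TG libraries spread over 1.97 times at ZT14 and 2.23 times at ZT2. Both libraries that stood apart held the lowest Wee1 level of their group. The log2 difference of ZT14 over ZT2 was 2.71 in TG (SE 0.28) and 3.56 in WT (SE 0.29), and 2.63 in TG without the 2 libraries that stood apart.

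**Figure D1:**
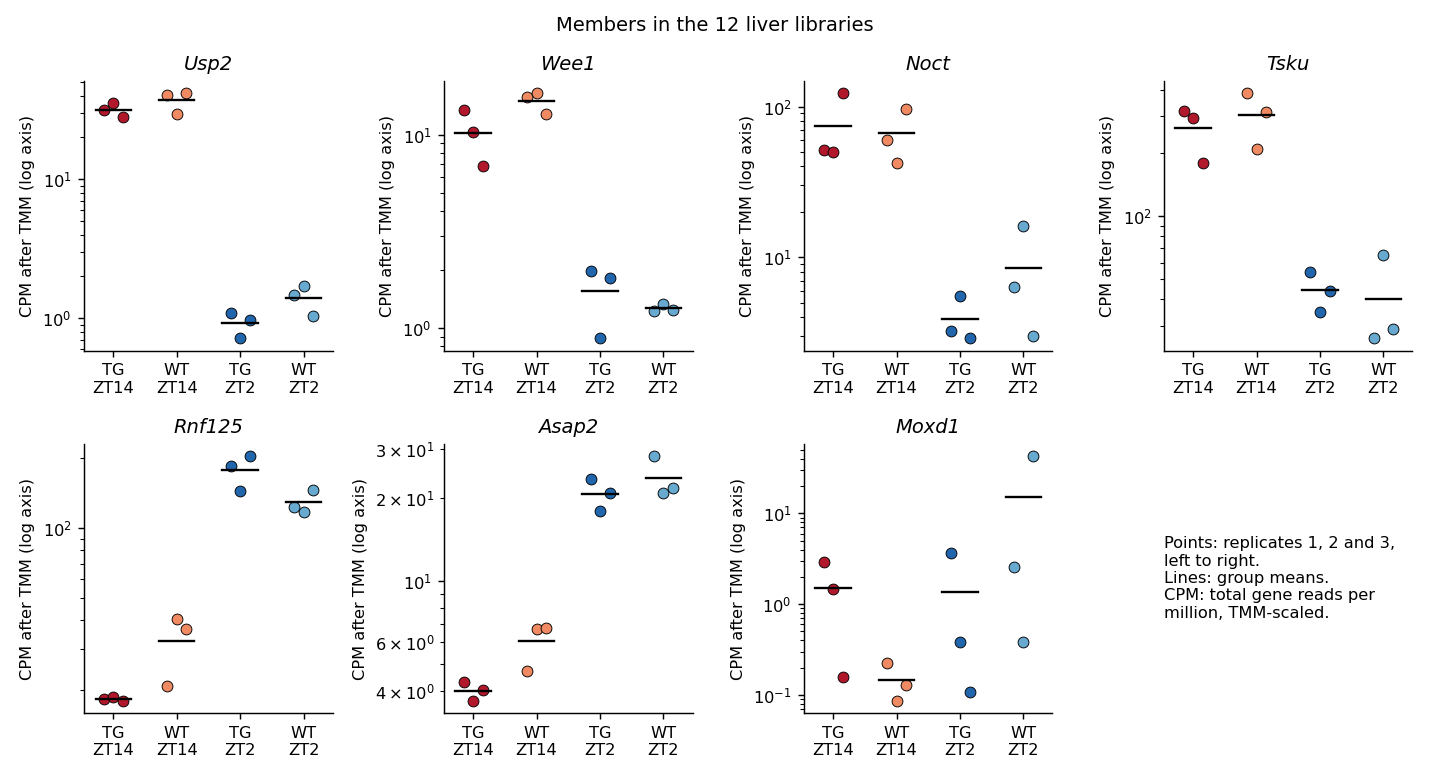
Level of each of the 7 genes in the 12 libraries (CPM after TMM scaling, log axis), with 1 point per library and a line at each group mean, for TG and WT at ZT14 and TG and WT at ZT2. Usp2, Wee1, Noct and Tsku lie higher at ZT14, Rnf125 and Asap2 lie higher at ZT2, and Moxd1 spreads within groups, with a single WT library at ZT2 at 42.9 CPM.

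Noct (ENSMUSG00000023087, chromosome 3, 51224447 to 51251644, plus strand) had 51.2, 49.5 and 122 CPM in TG at ZT14 and 60.1, 42.2 and 97.0 CPM in WT at ZT14. At ZT2 the levels were 3.23, 5.5 and 2.89 CPM in TG and 6.30, 16.2 and 3.0 CPM in WT. The times did not overlap in either genotype, but the replicates differed by 2.30 to 5.40 times except in TG at ZT2, where they differed by 1.90 times. The log2 difference of ZT14 over ZT2 was 4.26 in TG (SE 0.59) and 3.0 in WT (SE 0.54), and 4.02 in TG without the 2 libraries that stood apart. Without WT at ZT2 replicate 2, which held 256 of the 448 Noct reads of its group, the difference in WT was 3.83. By junction reads the difference in WT was 3.87.

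Tsku (ENSMUSG00000049580, chromosome 7, 98350668 to 98361328, minus strand) had 317, 295 and 179 CPM in TG at ZT14 and 385, 208 and 315 CPM in WT at ZT14. At ZT2 the levels were 53.8, 34.9 and 43.8 CPM in TG and 26.1, 65.1 and 28.8 CPM in WT. The log2 difference of ZT14 over ZT2 was 2.58 in TG (SE 0.36) and 2.93 in WT (SE 0.36). As with Noct, the highest WT library at ZT2 was replicate 2. Without it the difference in WT was 3.46.

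Rnf125 (ENSMUSG00000033107, chromosome 18, 20944625 to 20983848, plus strand) ran the other way. It had 18.2, 18.5 and 17.85 CPM in TG at ZT14 and 20.7, 40.3 and 36.8 CPM in WT at ZT14. At ZT2 it had 185, 145 and 205 CPM in TG and 123, 117 and 147 CPM in WT. The order of the group means was TG at ZT14, WT at ZT14, WT at ZT2 and TG at ZT2, low to high, so TG held both the lowest and the highest mean. TG lay below WT at ZT14 without overlap. At ZT2 the groups overlapped, since the lowest TG library lay just under the highest WT library. The log2 difference of ZT14 over ZT2 was -3.29 in TG (SE 0.22) and -1.99 in WT (SE 0.21). The 3 TG libraries at ZT14 lay within 1.04 times of each other.

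Asap2 (ENSMUSG00000052632, chromosome 12, 21111748 to 21270171, plus strand) had 4.30, 3.67 and 4.02 CPM in TG at ZT14 and 4.73, 6.70 and 6.74 CPM in WT at ZT14. At ZT2 it had 23.5, 17.9 and 20.75 CPM in TG and 28.4, 20.9 and 21.8 CPM in WT. TG lay below WT at ZT14 without overlap, and the groups overlapped at ZT2. The log2 difference of ZT14 over ZT2 was -2.37 in TG (SE 0.17) and -1.97 in WT (SE 0.16). Between 58.3% and 69.7% of its reads mapped uniquely, and its annotated span shares 89172 bases with Gm21989 on the same strand and 29347 bases with Itgb1bp1 on the opposite strand. Its total is therefore less certain than those of Rnf125 and Tsku, of which at least 99.8% of reads mapped uniquely in every group.

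Moxd1 (ENSMUSG00000020000, chromosome 10, 24223517 to 24302790, plus strand) went against the name of a strong time-of-day gene. Its levels were 2.91, 1.48 and 0.159 CPM in TG at ZT14, 0.227, 0.0854 and 0.129 CPM in WT at ZT14, 3.64, 0.385 and 0.107 CPM in TG at ZT2, and 2.54, 0.380 and 42.9 CPM in WT at ZT2. In TG the times overlapped, with a log2 difference of 0.14 (SE 1.48). In WT the times did not overlap, but 830 of the 890 reads at ZT2 came from replicate 3, and the WT libraries at ZT14 held 5, 2 and 3 reads. The log2 difference in WT was -6.66 (SE 1.78), and -3.32 without that replicate. In the same library the 7 tested cholangiocyte markers summed to 95.7 CPM, against 43.2 and 36.2 CPM in the other WT libraries at ZT2. Other marker lists were also highest there, with stellate cell and fibroblast markers at 359 CPM against 276 and 283 CPM and lymphocyte markers at 16.9 CPM against 12.4 and 13.1 CPM. Kupffer cell markers had 468.5 CPM against 433 and 425 CPM, and endothelial markers 446 CPM against 399 and 417 CPM. The 7 cholangiocyte markers were detected in all 12 libraries. Their sums were 41.3 to 71.6 CPM in TG at ZT14, 51.2 to 55.1 CPM in WT at ZT14 and 58.3 to 89.5 CPM in TG at ZT2. The 89.5 CPM belonged to TG at ZT2 replicate 1, where Moxd1 had 3.64 CPM. These sums are weighted to Spp1, which had 21.9 to 77.7 CPM over the 12 libraries, while the next marker, Sox9, reached 18.05 CPM. As a mean of log2 CPM over the markers, WT at ZT2 replicate 3 lay 0.61 above the WT mean. The 3 TG libraries at ZT2 lay 0.83, 0.44 and 0.60 above it, where Moxd1 had 3.64, 0.385 and 0.107 CPM. The part of these marker lists in the Moxd1 level was not tested. In bulk liver, fewer cells of a type and less RNA per cell cannot be told apart.

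For levels between genes, the authors' deposited TPM values, which are scaled by annotated exon length, were used. That length was 10658 bases for Noct, and from 1334 (Rnf125) to 5687 bases (Asap2) for the other genes. For Usp2 and Wee1 at ZT14, only 47.3% to 54.5% of reads mapped uniquely, so their TPM values are less certain. At the time of its higher level Tsku averaged 173 ± 47.3 TPM in TG and 186 ± 51.7 TPM in WT (SD, n = 3 each), and Rnf125 averaged 209 ± 25.7 TPM in TG and 165 ± 17.3 TPM in WT (SD, n = 3 each). These were the most abundant of the 7. Usp2 averaged 15.1 ± 1.34 TPM in TG and 17.0 ± 2.42 TPM in WT at ZT14 (SD, n = 3 each), and Noct 12.1 ± 6.35 TPM in TG and 10 ± 4.14 TPM in WT (SD, n = 3 each). Wee1 averaged 6.82 ± 2.27 TPM in TG and 9.72 ± 1.40 TPM in WT at ZT14, and Asap2 5.70 ± 0.820 TPM in TG and 6.73 ± 1.11 TPM in WT at ZT2 (SD, n = 3 each). At the time of its lower level Tsku, at 28 TPM in TG and 23.7 TPM in WT, still lay above the higher level of Usp2. Rnf125 at ZT14 likewise averaged 23.2 TPM in TG and 38 TPM in WT, while Usp2, Wee1 and Noct all averaged under 1 TPM at ZT2.

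Usp2 and Wee1 each lie wholly inside a gene model annotated on the opposite strand, and the sources used here do not give whether the authors counted by strand. Usp2 lies inside Rnf26 (chromosome 9, 44066327 to 44113517) and Wee1 inside 1600010M07Rik (chromosome 7, 109998376 to 110151202). In both genes every read deposited as unique was a read across an exon junction. Junction reads made up 53.8% of Usp2 exon reads in TG at ZT14 and 50.8% in WT at ZT14, and at ZT2 95.9% in TG and 88.0% in WT. Over all genes the share was 52.3% to 54.3% per library. Counted by junction reads, Usp2 at ZT14 was 18.35 times its level at ZT2 in TG and 14.8 times in WT, against 32.7 and 25.7 times by all exon reads. The higher Usp2 level at ZT14 was thus present in both counts and smaller by junction reads.

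**Figure D2:**
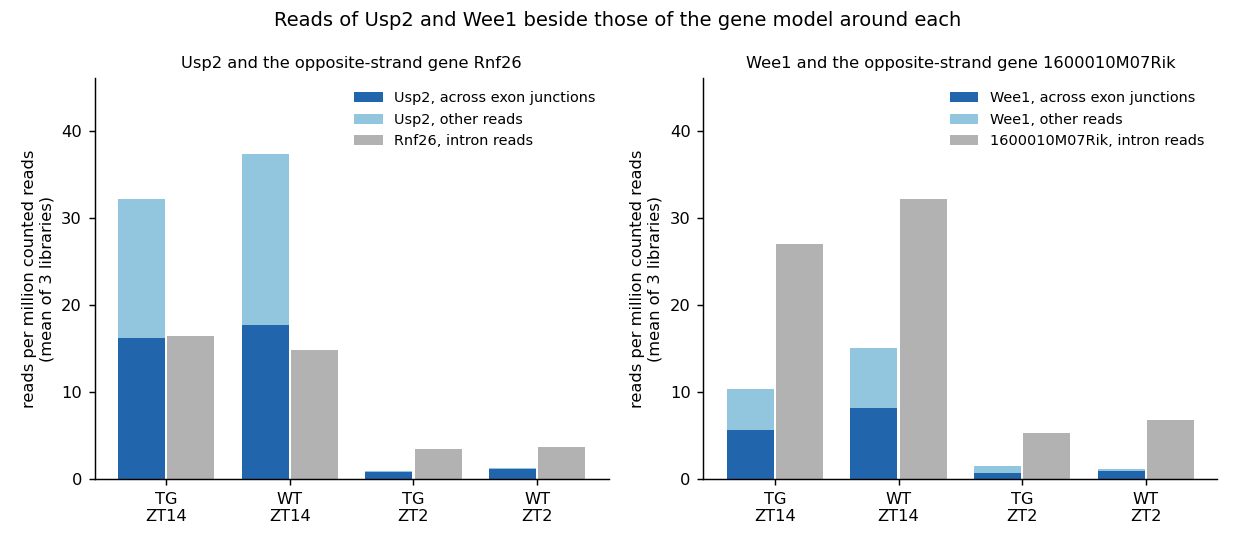
Reads scaled to library size (mean of 3 libraries) of Usp2 and Wee1, divided into reads across exon junctions and other reads, beside the intron reads of the opposite-strand gene around each, for TG and WT at ZT14 and at ZT2. Intron reads of Rnf26 and of 1600010M07Rik were higher at ZT14 in both genotypes, as were the junction reads of Usp2 and Wee1.

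For Wee1 the junction reads at ZT14 were 7.39 times those at ZT2 in TG and 8.33 times in WT, against 7.12 and 11.4 times by exon reads. The Wee1 time difference in TG minus that in WT was -0.21 on the log2 scale by junction reads and -0.85 by all gene reads. By all gene reads without the 2 libraries that stood apart it was -0.92. The intron reads of the surrounding models were also higher at ZT14. Rnf26 intron reads at ZT14 were 4.72 times those at ZT2 in TG and 3.95 times in WT, and those of 1600010M07Rik 5.01 times in TG and 4.75 times in WT. Rnf26 exon reads showed no such difference, at 1.10 times in TG and 0.896 times in WT. Its intron reads deposited as unique did not follow all its intron reads either, at 1.42 times in TG, on 31 reads at ZT14 against 17 at ZT2, and 0.821 times in WT, on 15 reads at each time. Unique intron reads of 1600010M07Rik were 8.15 times as many at ZT14 in TG and 5.68 times in WT.

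Exon and intron reads were compared in the 4 genes with enough of both. For Rnf125, exon reads at ZT2 were 9.68 times those at ZT14 in TG and 4.61 times in WT. Its intron reads at ZT2 were 10.06 times those at ZT14 in TG and 2.75 times in WT. Both kinds of read therefore had the wider range in TG. The intron share of Rnf125 reads was 28.3% to 35.3% in TG at ZT14 and 33.9% to 35.8% in WT at ZT14, and 30.0% to 34.0% in TG at ZT2 and 22.4% to 26.6% in WT at ZT2. WT at ZT2 thus stood below the other 3 groups in every library.

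Asap2 showed the same order on fewer reads, with exon reads at ZT2 at 4.98 times those at ZT14 in TG and 4.51 times in WT. These exon ratios lay close, and with 1 library left out they reached 4.47 in TG and 5.04 in WT. Asap2 intron reads were at 5.68 times in TG and 2.90 times in WT. Many of these were not unique, with 59 of 112 unique in TG at ZT2 replicate 1. Noct exon reads at ZT14 were 18.7 times those at ZT2 in TG and 9.88 times in WT, and its intron reads 20.6 times in TG and 5.39 times in WT. Without WT at ZT2 replicate 2, which held 137 of the 242 exon and 119 of the 206 intron reads of its group, the WT ratios of Noct were 17.8 and 10.05 times. Without TG at ZT14 replicate 3 its intron ratio in TG was 11.95 times. By junction reads the Noct ratios were 17.0 times in TG and 14.4 times in WT, resting on 13 and 15 reads at ZT2. The intron share of Noct per library was 21% to 37% in TG at ZT2 and 36.2% to 49.2% in WT at ZT2, so the groups overlapped. For Tsku, exon reads at ZT14 were 5.77 times those at ZT2 in TG and 7.54 times in WT, and intron reads 7.01 times in TG and 7.68 times in WT, or 15.6 times in WT without replicate 2 of ZT2. In all 4 genes and both genotypes, intron and exon reads lay on the same side.

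**Figure D3:**
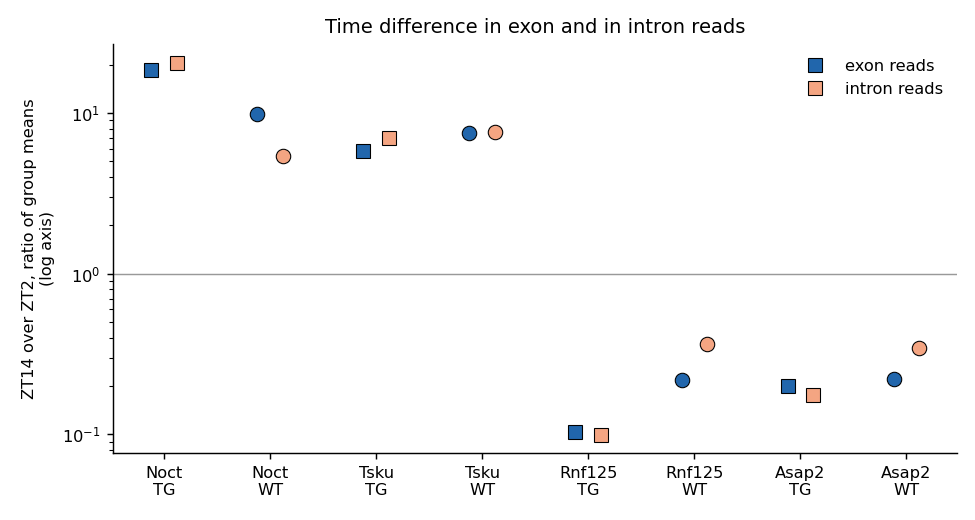
Ratio of the mean level at ZT14 to that at ZT2 (log axis) in exon reads and in intron reads of Noct, Tsku, Rnf125 and Asap2, for TG and WT, with a line at 1. In TG the 2 kinds of read lie close together, and in WT the intron ratio of Noct, Rnf125 and Asap2 lies nearer to 1 than the exon ratio, and both Noct ratios in WT rest largely on replicate 2 of ZT2.

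Whether E4BP4 overexpression changed these genes was asked in 4 contrasts of TG with WT, fitted over all 15244 genes with edgeR. The mean over both times is not the quantity that chose the members, while the contrasts at ZT14 and at ZT2 and the interaction, which is the TG time difference minus the WT one, draw on it. The mean still uses the same libraries and is not fully independent of the choice where the spread of the groups is unequal. In WT the SD of log2 CPM was 0.42 at ZT14 against 3.28 at ZT2 for Moxd1, and 0.60 at ZT14 against 1.2 at ZT2 for Noct. The sources used here do not give the genotype in which the time difference was taken for the choice. By edgeR, 0 of the 7 genes passed an adjusted p of 0.05 in any of the 4. Over all genes, 0.144% passed for the mean of both times, 0.0853% at ZT14, 0.0722% at ZT2 and 0.00656% for the interaction. At an unadjusted p under 0.05 there were 2 of the 7 for the mean, 3 at ZT14, 2 at ZT2 and 2 for the interaction, where 8.82%, 6.91%, 7.56% and 5.98% of all genes in the same order were under it. limma-voom called 0 in each, and DESeq2 called Rnf125 at ZT14 and for the interaction.

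**Figure D4:**
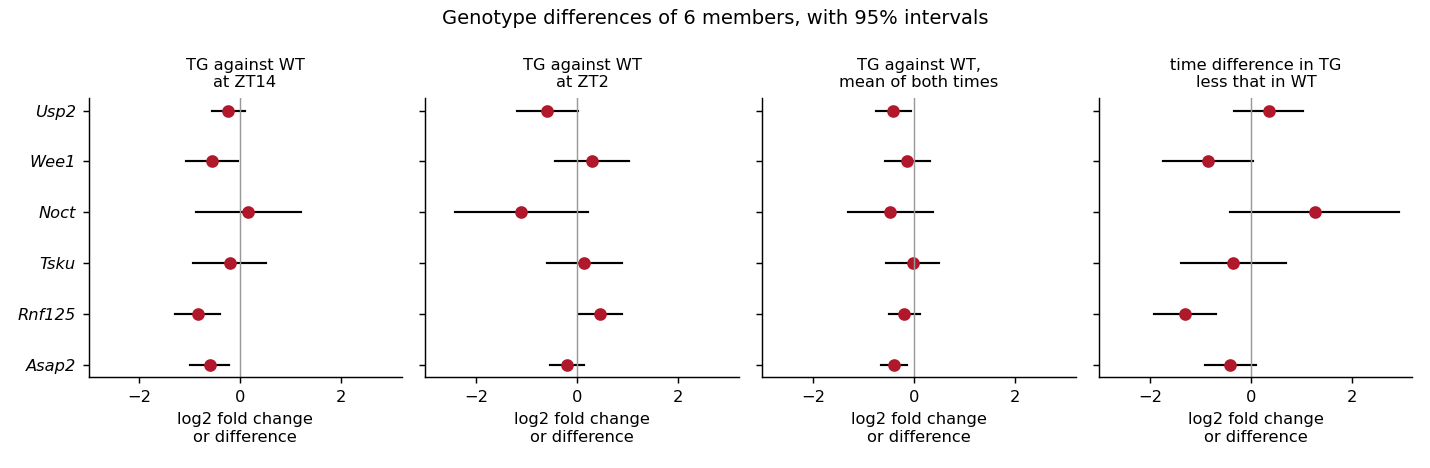
Log2 difference of TG over WT at ZT14, at ZT2 and as the mean of both times, and the interaction (TG time difference minus the WT one), with 95% intervals from edgeR, for 6 of the genes. Moxd1 is left off because its intervals span several log2 units. Rnf125 lies below 0 at ZT14 and above 0 at ZT2, and the intervals of Tsku and Noct span 0 in all 4 panels.

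Rnf125 had the smallest unadjusted p of the 7 in 2 of these contrasts. At ZT14 the log2 difference of TG over WT was -0.84 (SE 0.21, 95% interval -1.29 to -0.39), with an edgeR p of 0.00142 and an adjusted p of 0.372. At ZT2 it was 0.47 (SE 0.20), with an edgeR p of 0.0355 and an adjusted p of 0.639. The interaction was -1.31 (SE 0.29, 95% interval -1.93 to -0.69), with an edgeR p of 0.000578 and an adjusted p of 0.480. At ZT14 the log2 difference ranged from -1.08 to -0.66 over 25 alternatives. Its adjusted p ranged from 0.00969 to 0.989 and was below 0.05 in 3, which were DESeq2 (0.0180), a filter of only 1 read in total (0.0311) and the omission of WT at ZT14 replicate 1 (0.00969, at -1.08). The same 3 gave adjusted p-values of 0.00718, 0.0226 and 0.0317 for the interaction, against a range of 0.00718 to 0.999 over 24 alternatives. Without the 2 libraries that stood apart the log2 differences were -0.83 at ZT14, 0.60 at ZT2 and -1.43 for the interaction.

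Asap2 was lower in TG on the fitted scale in all 3 direct contrasts, without passing. The log2 difference was -0.60 at ZT14 (SE 0.18, 95% interval -0.98 to -0.22), with an edgeR adjusted p of 0.525. It was -0.20 at ZT2 (SE 0.15) and -0.40 as the mean (SE 0.12, 95% interval -0.65 to -0.15), with an edgeR adjusted p of 0.402 for the mean. Groups without overlap between TG and WT were found for 2 of the 7 at ZT14, Rnf125 and Asap2, and for 0 of the 7 at ZT2. Over all genes, 12.4% had groups without overlap at ZT14 and 12.1% at ZT2. Between the times, 6 of the 7 did not overlap in TG, against 30.0% of all genes, and 7 of the 7 in WT, against 29.3%, as the choice of members would give.

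The remaining genes did not pass in any of these contrasts either. Usp2 as the mean of both times was -0.41 (95% interval -0.75 to -0.06, edgeR adjusted p = 0.498). Wee1 was -0.55 at ZT14 (95% interval -1.06 to -0.04, edgeR adjusted p = 0.684), and -0.34 without the libraries that stood apart. Noct was -1.10 at ZT2 (95% interval -2.42 to 0.22, edgeR adjusted p = 0.711), and -1.44 without the libraries that stood apart. Tsku was -0.03 as the mean (95% interval -0.55 to 0.49, edgeR adjusted p = 0.985). Moxd1 was 3.30 at ZT14 (SE 2.05, edgeR adjusted p = 0.763) and -3.50 at ZT2 (SE 1.35, edgeR adjusted p = 0.606). Without WT at ZT2 replicate 3 the Moxd1 value at ZT2 was -0.15.

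Within groups, the genes departed from their group means in patterns that differed by gene. WT at ZT2 replicate 2 lay above its group mean by 1.25 on the log2 scale for Noct, 0.83 for Tsku and 0.30 for Usp2, and also by 1.28 for Dbp, the clock-controlled D-box activator. Dbp had 2.60, 1.87 and 2.14 CPM in TG at ZT2, against 1.27, 11.65 and 6.93 CPM in the 3 WT libraries at ZT2, so the WT group at ZT2 was the more uneven of the 2. Wee1, in contrast, departed by 0.07 at most in WT at ZT2. TG at ZT14 replicate 3, which stood apart, lay 0.85 above its group for Noct and 0.51 below it for Tsku and 0.52 below it for Wee1. Sampling time within a group was not tested, since the labels give only ZT14 and ZT2.

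**Figure D5:**
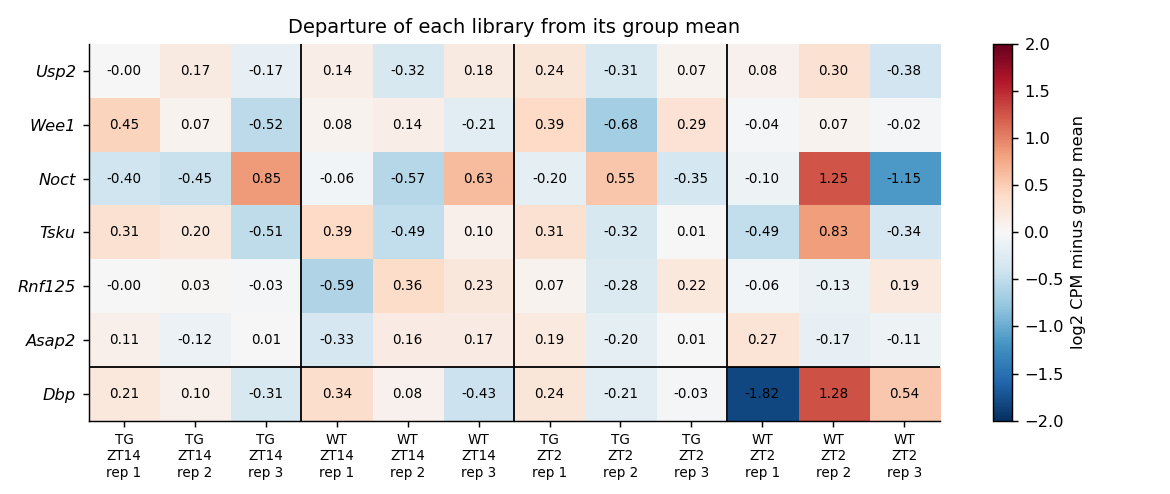
Departure of each library from its group mean (log2 CPM minus the mean of its 3 libraries) for 6 of the genes and Dbp, in TG and WT at ZT14 and at ZT2. WT at ZT2 replicate 2 is high for Noct, Tsku and Dbp, and Noct varies most among the 6 genes.

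Likeness between genes was measured as the root mean square difference of log2 CPM, each gene centred on its mean over the 12 libraries. It covered 11746 genes with a mean of at least 1 CPM, with symbols of predicted genes, clones and pseudogenes left out. It is a description over 12 libraries that share 2 times. Nearest to Usp2 were the clock repressors Ciart (0.49) and Per3 (0.56). Nearest to Wee1 were Tsku (0.43) and the clock repressor Per2 (0.46), and nearest to Noct were Mfsd2a, a lysolipid transporter (0.53), and Per1 (0.54). Tsku lay nearest to Fasn, the fatty acid synthase (0.39), and to Wee1 (0.43). Rnf125 lay nearest to Dhrs9, a short-chain dehydrogenase (0.32), and to Asap2 (0.39). Asap2 lay nearest to Tymp, the thymidine phosphorylase (0.23), and Clpx, a mitochondrial chaperone (0.23). Moxd1 had no close match, with Derl3 (1.62) and Ptn (1.69) nearest.

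The clock loop and the relatives of each gene were examined as lists. In the 23 genes of a circadian clock list, which holds none of the 7, edgeR called 12 higher and 5 lower at ZT14 in TG, and 11 higher and 4 lower in WT. Over all genes, 6.70% were called higher and 5.52% lower in TG, and 4.85% higher and 4.32% lower in WT. Without the 2 libraries that stood apart, 10 clock genes were called higher and 5 lower in TG. The clock genes with the largest changes were Npas2, an activator, at -7.48 in TG and -4.05 in WT, and Ciart at 6.07 in TG and 5.99 in WT. Per3 changed by 5.76 in TG and 5.03 in WT. Between TG and WT, edgeR called 1 of the 23 higher for the mean of both times and 1 higher at ZT14. The called gene is taken to be Nfil3, the overexpressed gene itself, so these calls restate the overexpression. The largest log2 difference in the list was 1.07 for the mean and 1.34 at ZT14. Nfil3 averaged 78.6 CPM in TG against 31.05 CPM in WT at ZT14. In the list edgeR called 0 at ZT2 and 0 for the interaction. At an unadjusted edgeR p under 0.05 there were 5 for the mean, 3 at ZT14, 7 at ZT2 and 5 for the interaction. Over all genes, 8.82%, 6.91%, 7.56% and 5.98% in the same order were under it. Without the 2 libraries that stood apart, 0 of the 23 were called in these contrasts.

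Among 45 tested genes of a USP list drawn up by name, 6 were called higher and 1 lower in TG, and 1 higher and 2 lower in WT, with median log2 differences of 0.07 in TG and 0.02 in WT against 0.01 over all genes in each. Usp36, a nucleolar deubiquitinase, was higher at ZT14 in both, by 1.2 in TG and 0.70 in WT. Usp28 was lower in TG, at -0.52. In WT the lower genes were Usp18, which removes ISG15, at -1.13, and Usp6nl, a GTPase-activating protein for RAB proteins and not a protease, at -0.69. Without the 2 libraries that stood apart, edgeR called 4 of 44 USP genes higher and 0 lower in TG.

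Among 22 ARF GTPase-activating proteins other than Asap2, 3 were called higher and 1 lower in TG and 2 higher and 0 lower in WT. Without the 2 libraries that stood apart the counts were 2 higher and 0 lower in TG. Agap2 rose by 1.27 in TG and 1.01 in WT, in the direction opposite to Asap2. Of the 5 other CCR4-like genes, Angel2 and Pde12 rose in TG, by 0.39 and 0.81, and Angel2 rose in WT, by 0.58. Of 10 small leucine-rich proteoglycans tested beside Tsku, edgeR called Podn, a matrix proteoglycan, higher in TG by 0.69, which limma-voom did not. In WT it called 0, with 1 at an unadjusted p under 0.05, while DESeq2 called 1. Without the 2 libraries that stood apart, edgeR called 0 higher and 1 lower in TG.

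Of 9 tested partners of WEE1 at mitotic entry, edgeR called 0 in either genotype, with 1 in TG and 3 in WT at an unadjusted p under 0.05, where 26.3% of all genes in TG and 23.2% in WT were under it. DESeq2 and limma-voom also called 0. For the 3 ligases of the Rnf125 subfamily edgeR, DESeq2 and limma-voom called 0, with 1 at an unadjusted edgeR p under 0.05 in TG and 0 in WT. Pam, the only tested copper monooxygenase relative of Moxd1, was not called by edgeR, at 0.06 in TG and 0.14 in WT. Of the relatives in these 7 family lists, edgeR called 0 in any contrast of TG with WT, and 5.98% to 8.82% of all genes were at an unadjusted p under 0.05. Under it were 1 to 4 of the 45 USP genes, 1 to 2 of the 22 ARF GTPase-activating proteins, 0 to 3 of the 10 proteoglycans, 0 to 1 of the 9 WEE1 partners, and 0 of the CCR4-like genes and the ligases. Pam was under it in 3 of the 4 contrasts, at 0.39 for the mean of both times. limma-voom also called 0, and DESeq2 called 2 proteoglycans higher in TG for the mean of both times and 1 at ZT2.

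The proteoglycans were set beside the stellate cell and fibroblast markers, and 2 genes, Dcn and Lum, are in both lists. For the mean of both times the log2 difference of TG over WT had a median of 0.38 over the 12 markers, all of them above 0, against 0.33 over the 10 proteoglycans. edgeR called 0 of the markers, with 8 at an unadjusted p under 0.05 where 8.82% of all genes were under it. DESeq2 called 1 and limma-voom called 0. Summed, the markers had 321 to 434 CPM in TG at ZT14 against 308 to 339 CPM in WT at ZT14, and at ZT2 375 to 465.5 CPM in TG against 276 to 359 CPM in WT. Their part in the proteoglycan values was not tested.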

How the data were processed

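Per the file headers, the tables the authors deposited hold counts of total, unique, exon, intron and exon junction reads for each gene, with RPKM and TPM values. The deposited counts are raw. The deposited TPM values were used only to set levels of different genes side by side, and the deposited RPKM values were not used. The builds are mm10 and GRCm38, per the submitters' processing notes. Aligner and strand setting: not given in the sources used here.

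Total gene reads from the 12 libraries were fitted in 4 groups with edgeR 4.0.16 (glmQLFit, glmQLFTest) in R 4.3.3. The filter was filterByExpr with at least 10 reads and a total of at least 15, and scaling was by TMM. Benjamini-Hochberg adjustment covered all 15244 genes, and calls are adjusted p-values below 0.05. Intervals are 95% intervals of the fitted model. Chi-square per degree of freedom between libraries of a group ran from 9.85 to 90.89, beyond sampling noise, so none was counted as a repeat.

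The 7 genes and the lists were chosen with earlier results of these data known. The text names the 7 genes, the 2 tested genes nearest to each, Dbp, Nfil3 and up to 4 called genes of each list, and also Pam and the genes around Usp2, Wee1 and Asap2. Other settings tried were DESeq2 1.42.0, limma-voom (limma 3.58.1), RLE size factors, no scaling beyond library size, other filters, unique, exon and intron reads, 6 libraries at a time, a replicate block and omitted libraries. Counts of junction reads and exon and intron ratios with 1 library left out were chosen as further settings once the data had been examined. The fit was tested on simulated data.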

Additional observations from a re-analysis of the deposited data

Results flagged for a closer look

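A gene was flagged where all 3 TG libraries lay on 1 side of the WT mean at ZT2 and on the other side at ZT14. This held for 2 of the 7 genes, Rnf125 and Moxd1. The share of all genes that meet this rule was not counted, so the 2 of 7 is a description only. For the same 2, the log2 difference of TG over WT at ZT14, less the one at ZT2, had an edgeR p under 0.05 before adjustment. So had 5.98% of all genes, and neither of the 2 passed after adjustment. This log2 difference draws on the time differences behind the choice of the genes. The flag also selects on it, in the same libraries, so its p-value is no separate support for the flag. For Rnf125 the log2 difference was -1.31, with the wider time range in TG. Its edgeR p was 0.000578 before adjustment and 0.480 after it. For Moxd1 it was 6.80, with an edgeR p of 0.0142 before adjustment and 0.751 after it. Of the 890 Moxd1 reads in WT at ZT2, 830 came from replicate 3, and without that library the value was 3.46. The WT mean behind the Moxd1 flag, 15.3 CPM at ZT2, includes that replicate at 42.9 CPM.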

How the results depend on the processing

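For the mean of both times 22 genes were called, with 75 under DESeq2, 61 with at least 1 read, 4 by intron reads, 12 without the 2 libraries that stood apart, 14 by junction reads and 13 to 25 with 1 library left out. At ZT2 the count was 11, with 57 under DESeq2, 43 with at least 1 read, 3 by intron reads and 7 to 22 with 1 library left out. At ZT14 it was 13, with 53, 41 and 4 under the same 3 settings and 10 to 17 with 1 library left out. The interaction had 1 call, with 4 under RLE size factors or by unique reads, 21 under DESeq2, 11 with at least 1 read, 2 by intron reads, 2 under the replicate block, 2 without the 2 libraries that stood apart and 0 to 3 with 1 library left out. The time difference had 1862 calls in TG, with 698 by intron reads, 1150 without the 2 libraries, 1178 by junction reads and 1127 to 1873 with 1 library left out. In WT it had 1398 calls, with 239 by intron reads and 770 to 1511 with 1 library left out, the lowest without WT at ZT14 replicate 1.

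Small log2 differences of TG over WT changed sign. As the mean of both times Wee1 (-0.13) was 0.99 by intron reads, on only 2 such reads in WT and 12 in TG at ZT2. Wee1 was 0.12 without the 2 libraries and -0.25 to 0.013 with 1 library left out. Tsku (-0.03) was 0.036 under limma-voom, 0.031 by exon reads, 0.15 without the 2 libraries, 0.13 by junction reads and -0.15 to 0.24 with 1 left out. Moxd1 (-0.10) was 0.24 by exon reads, 0.32 under the replicate block, 0.40 without the 2 libraries, 0.27 by junction reads and -1.32 to 1.58 with 1 left out. At ZT2 Wee1 (0.30) was -0.37 by unique and -0.34 by junction reads, and Tsku (0.15) was -0.20 by intron reads and -0.089 to 0.69 with 1 left out. At ZT14 Noct (0.16) was -0.40 without the 2 libraries and -0.40 to 0.54 with 1 left out, and Tsku (-0.20) was 0.012 without the 2 libraries and -0.41 to 0.016 with 1 left out. The Moxd1 time difference in TG (0.14) was -0.74 to 2.57 with 1 left out. The cause of these changes was not tested. Where 1 library is left out, a group of 2 remains and the groups share 1 estimate of the spread.

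Replicate numbers did not pair the libraries. Of 18 same-numbered pairs, 2 correlated above 0.1 in their departures from group means, with a range of -0.25 to 0.15, and 8 correlated best with their own number. With the replicate block 0 of the 7 genes were called by edgeR in a contrast of TG with WT. Depth limits Usp2 and Wee1 at ZT2 and Moxd1 in most libraries, which rest on few reads.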
